A study of Drosophila melanogaster with 21 samples.

Results

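The genes described here encode the proteins of the cytosolic ribosome of Drosophila melanogaster, together with their paralogs. They were chosen by symbol, as the gene IDs of the count tables whose FlyBase symbol starts with RpL (large subunit) or RpS (small subunit), leaving out mitochondrial ribosomal proteins and kinases. Of 17558 gene IDs in the tables, 87 met this rule. They fall into 75 canonical genes (45 of the large and 30 of the small subunit) and 12 paralogs. Paralogs here are related genes that carry the name of a canonical gene with a suffix such as b or -like. RpL24-like and RpLP0-like are counted among them by name, although they are the counterparts of yeast assembly factors. A further 5 symbols (RpL19, RpL27A, RpL31, RpS10b and RpS12) have IDs outside the tables and were not analysed here.

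RNA was measured by sequencing of poly(A) RNA from S2R+ cells, an established fly line of embryonic origin with macrophage-like traits. There were 7 groups of 3 libraries. The depleted groups were Ime4 and CG7818 (the Mettl3 and Mettl14 subunits that write N6-methyladenosine, m6A, into mRNA), the double depletion of Ime4 with CG7818, Fl2d (a further protein of the writer complex), and CG6422 and YT521 (the Ythdf and Ythdc1 proteins, which bind m6A). The remaining group was Control, cells given no depletion of these genes. The titles assign the libraries of the double depletion to both genes, although their genotype field lists Ime4 alone. How the depletions were made and whether the 3 libraries of a group came from separate cultures, the sources used here do not say, so p-values measure the spread between these libraries, which may be technical.

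Each ribosome needs 1 copy of almost every ribosomal protein, and their mRNAs are short, stable and among the most abundant of a growing cell. In flies, loss of a single copy of many of these genes gives the Minute phenotype of slow growth and thin bristles. Several fly ribosomal protein genes have a paralog whose expression is highest in the germ line: RpS5b and RpS19b in the ovary, and RpS10a, RpL22-like and others in the testis. Many of the canonical genes also carry genes for small nucleolar RNAs (snoRNAs, guides for rRNA modification) in their introns. In the annotation used, 25 of the 87 genes did so, with 64 snoRNA genes in all. By chromosome, 13 lie on X, 18 on 2L, 19 on 2R, 13 on 3L, 23 on 3R and 1 on 4.

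Between 20210000 and 28300000 counts were assigned to genes in each library. The targeted genes were at 5.48% to 30.2% of their mean Control level in the libraries of their own depletion, and below every Control library. Of 9 plasmatocyte (fly macrophage) markers matched, 7 were above 1 CPM (counts-per-million of the scaled library) in Control, and the 3 muscle markers lay below it. Of 3 germ line markers listed, only bam was matched, at 89.5 CPM in Control and at 74.9 to 99.2 CPM over all libraries. Of 3 neuronal markers, elav was at 18.9 CPM in Control, while nSyb and brp were at 0.25 and 0.074 CPM. A pair of libraries stood apart. Fl2d replicate 1 and YT521 replicate 2 had 1.94% and 2.89% of their gene counts in mt:lrRNA, the large mitochondrial rRNA, against 5.62% to 8.62% in the other 19 libraries. Results that rest on these libraries are given with and without them.

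In Control cells the canonical genes were highly expressed per length. Their levels ranged from 164.3 to 11970 CPM per kb of exon with a median of 1954, against a median of 16.1 CPM per kb over the 7730 protein-coding genes tested. They made up 67 of the 100 protein-coding genes with the highest level per kb. The highest were RpL41 at 11970 ± 630, RpL23 at 9620 ± 740, RpL39 at 8230 ± 300 and RpL10 at 7124 ± 280 CPM per kb (SD, n = 3). RpL41 and RpL39 encode the shortest proteins of the large subunit, and per-length levels of so short a transcript depend on the fragment sizes sequenced. The lowest canonical genes were RpL22 at 164.3 ± 12, RpS14b at 361.8 ± 24, RpL34a at 465.1 ± 47 and RpL26 at 765.5 ± 76 CPM per kb (SD, n = 3). The last of these did not stand apart from the next in order, RpS4 at 772.1 ± 58 CPM per kb (SD, n = 3). RpS14b is a near-identical tandem copy of RpS14a, and reads aligned to several places (11.04% to 18.69% of all reads) were kept out of the gene counts, so the levels of such a pair are uncertain.

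The paralogs took a small part of the counts. All 12 together took 0.0481% to 0.073% of gene counts in a library. Only 6 of them had enough counts to be tested, and 6 were at or near 0. RpL10Aa and RpS28a had a count of 0 in every library, RpS28-like had 0 to 1, RpL22-like and RpL37-2 had 0 to 2 and RpL7-like had 0 to 3 counts per library. These 6 are at or under a floor of 3 counts per library and no change is given for them. Of the 1793 exon bases of RpL7-like, 1771 overlap CG34164 on the same strand. Reads from these genes cannot be told apart there, so the low count of RpL7-like does not show whether it is expressed. All 75 canonical genes passed the filter on low counts.

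Among the tested paralogs, RpL24-like, whose protein resembles RpL24 and is the counterpart of a yeast factor for assembly of the large subunit, had 31.2 ± 0.51% of the level of RpL24 per kb in Control (SD, n = 3). RpS19b had 13.8 ± 1.4% of that of RpS19a. RpLP0-like, likewise the counterpart of a yeast assembly factor, had 5.46 ± 0.46% of that of RpLP0. RpS15Ab had 3.56 ± 0.058% of that of RpS15Aa and RpS5b 0.099 ± 0.015% of that of RpS5a. RpS10a rested on 6 to 33 counts per library and RpS5b on 19 to 104, while the other 4 had at least 1485 counts in each. RpL24-like, at 320.5 CPM per kb in Control, lay above the lowest canonical gene, RpL22. The canonical partner of RpS10a is RpS10b, which was not analysed here.

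Of the 81 tested members, 42 were called in none of the 6 depletions, that is, at a Benjamini-Hochberg adjusted p under 0.05 in edgeR's quasi-likelihood test over all 8360 genes. A further 34 were called in 1 depletion, RpL27 and RpS15Ab in 2, RpL7A and RpL22 in 3, and RpS19b in 5. The 6 comparisons share the Control libraries, so they are not independent of each other. Calls among the canonical genes were few in 5 depletions and frequent in Fl2d, whose background was also the highest.

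**Figure D1:**
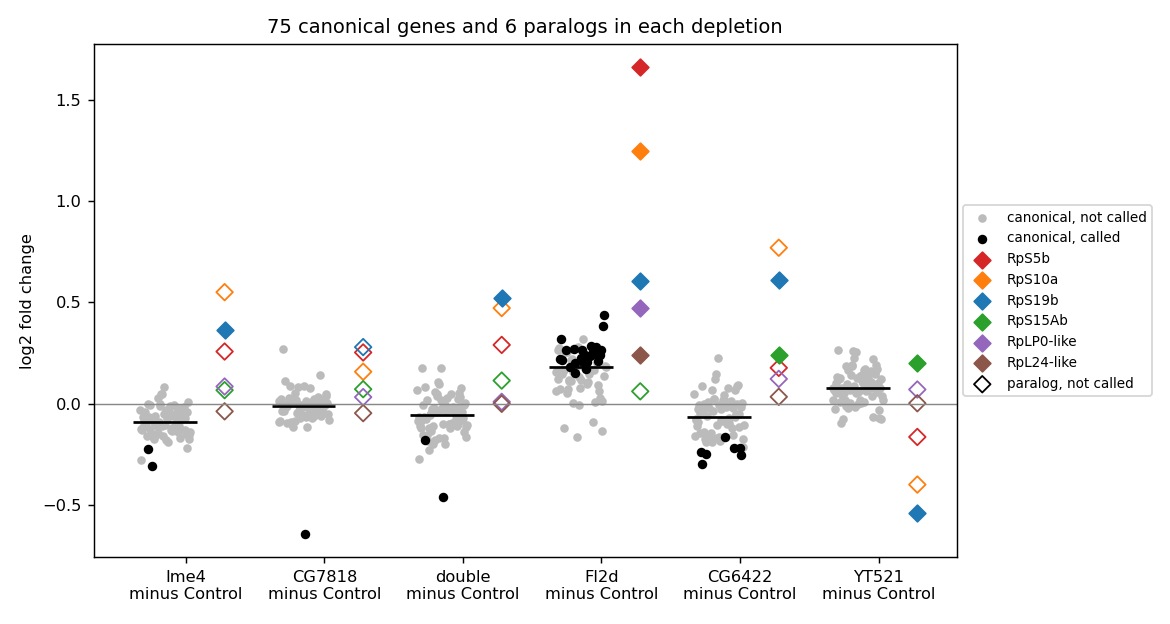
Log2 fold change of each member in each depletion against Control, on the vertical axis. Dots are the 75 canonical genes (black where called, grey where not), the horizontal bar is their median, and diamonds are the 6 tested paralogs (filled where called). The canonical medians lie between -0.089 and 0.079 in 5 depletions and at 0.18 in Fl2d, with RpL7A as the lowest dot in CG7818 and in the double depletion, while RpS5b, RpS10a and RpS19b lie furthest from 0 among the paralogs.

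RpS19b was the member called most often. It encodes a second version of the small subunit protein S19 and lies on 3R (23932729 to 23933530, minus strand, BDGP6.54), with no exon overlap with another gene. Its levels were 122, 124 and 113 CPM in Ime4, 117, 118 and 104 CPM in CG7818, and 142, 134 and 123 CPM in the double depletion. In Fl2d they were 137, 156 and 130 CPM, in CG6422 135, 152 and 138 CPM, and in YT521 67.8, 65.3 and 58.6 CPM, against 96.0, 85.0 and 98.3 CPM in Control. Every library of the other 5 depletions was above every Control library, and every YT521 library was below every Control library. In bulk RNA a lower level in every cell and expression in fewer cells cannot be told apart.

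The log2 fold change of RpS19b was 0.36 ± 0.077 in Ime4 (adjusted p = 0.00862) and 0.52 ± 0.077 in the double depletion (adjusted p = 0.000106; SE throughout for fold changes). It was 0.60 ± 0.077 in Fl2d (adjusted p = 3.02e-06) and 0.61 ± 0.077 in CG6422 (adjusted p = 4.69e-05). In YT521 it fell by 0.54 ± 0.078 on the log2 scale (adjusted p = 0.000215). In CG7818 the value was 0.28 ± 0.077 and did not pass (adjusted p = 0.0618), but it passed in 5 of 15 alternatives, such as DESeq2 (adjusted p = 0.0265), the range over all of them being 0.00357 to 0.257. The Ime4 call was lost without Control replicate 2 (adjusted p = 0.0727). The other 4 calls held in every alternative tried, those without Fl2d replicate 1 and YT521 replicate 2 included.

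RpS19a, the canonical gene of the pair on X, had 1195 to 1248 CPM in Ime4, 1187 to 1355 in CG7818, 1215 to 1283 in the double depletion, 1192 to 1348 in CG6422 and 1276 to 1471 in YT521, against 1187 to 1360 CPM in Control. In these 5 depletions its ranges overlapped Control and it was not called. In Fl2d it had 1736, 1461 and 1341 CPM, a log2 fold change of 0.25 ± 0.080 (adjusted p = 0.0179) that did not pass without Fl2d replicate 1 (adjusted p = 0.155). Within a library, where scaling cancels, RpS19b stood at 18.4 ± 1.1% of RpS19a per kb in Ime4, 16.6 ± 0.33% in CG7818, 20 ± 1.1% in the double depletion, 21 ± 0.5% in CG6422 and 8.86 ± 0.64% in YT521, against 13.8 ± 1.4% in Control (SD, n = 3). These 5 groups did not overlap Control. In Fl2d, where both genes were higher, the ratio was 14.8%, 20.2% and 18.3%, against 15.2%, 12.5% and 13.6% in Control, and the groups overlapped.

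**Figure D2:**
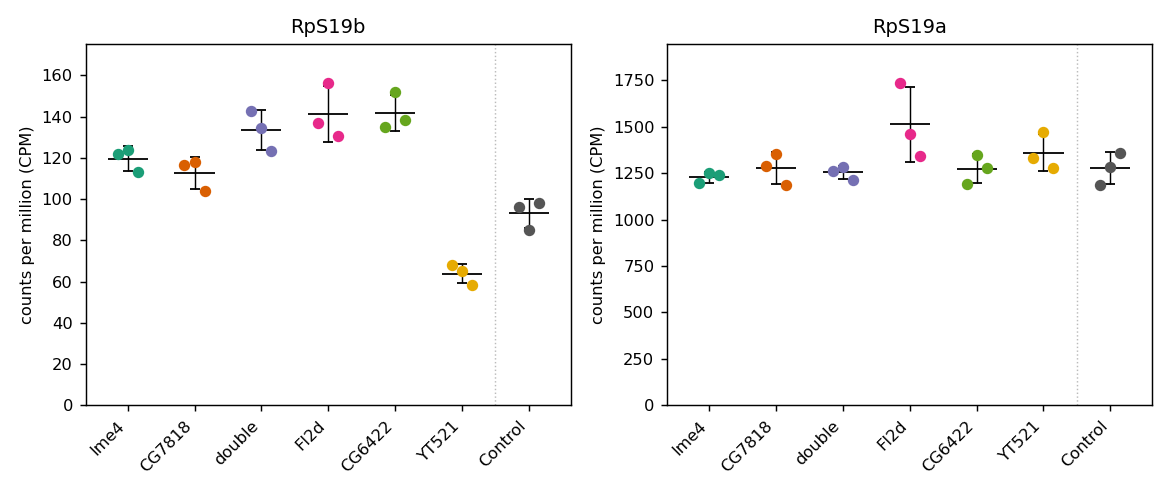
CPM of RpS19b (left) and of its canonical partner RpS19a (right) in each of the 21 libraries. Dots are libraries, and the bar and whiskers are the mean and SD of 3. RpS19b sits at 58.6 to 67.8 CPM in YT521 and above 103 CPM in the other 5 depletions, with Control between them, while RpS19a overlaps Control everywhere and is highest in Fl2d replicate 1.

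YT521 and CG6422 differed in RpS19b by a direct test. YT521 libraries averaged 63.9 CPM and CG6422 libraries 141.7 CPM, a log2 difference of -1.15 ± 0.078 (adjusted p = 1.7e-09). In this comparison 12.9% of all genes were called. RpS10a was also lower in YT521, at 0.245, 0.471 and 0.466 CPM, than in CG6422, at 1.15, 0.918 and 0.657 CPM (log2 difference -1.17 ± 0.31, adjusted p = 0.0139). It did not pass with YT521 replicate 1 left out (adjusted p = 0.0605) or CG6422 replicate 1 left out (adjusted p = 0.0677).

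The canonical genes went the other way between the 2 YTH depletions. Of 75, 11 were higher in YT521 than in CG6422 and 0 were lower (27 and 0 at an unadjusted p under 0.05, and 19 and 0 by DESeq2), with 6.67% of all genes called higher. Their median log2 difference was 0.156. Log2 differences of the 11 ran between 0.18 and 0.27, and RpL15, RpL27, RpL29, RpS4, RpL36A, RpS20, RpL9, RpL22 and RpS13 were among them. Without YT521 replicate 2, one of the pair low in mt:lrRNA, 2 canonical genes were called. Without CG6422 replicate 3 the count was likewise 2, and without CG6422 replicate 1 it was 0. In these fits 8.86%, 8.82% and 10.6% of all genes were called, in that order.

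RpL7A was the canonical gene with the largest change in CG7818 and in the double depletion. It encodes the large subunit protein eL8, lies on X (6530897 to 6533348, minus strand, BDGP6.54), holds 1 snoRNA gene in an intron and shares no exon with another gene. Its levels were 1904, 2045 and 1795 CPM in CG7818 and 2217, 2164 and 2148 CPM in the double depletion, against 2815, 3010 and 3158 CPM in Control. In Ime4 it had 2773, 2991 and 3017 CPM, in CG6422 2723, 3139 and 2968 CPM, and in YT521 2950, 3441 and 2983 CPM. All 6 libraries of the 2 groups depleted of CG7818 were below every other library of the series.

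RpL7A fell by 0.65 ± 0.085 on the log2 scale in CG7818 (adjusted p = 8.84e-05) and by 0.46 ± 0.084 in the double depletion (adjusted p = 0.000992). Both calls held in every alternative tried. In Ime4 the log2 fold change was -0.03 ± 0.084 (adjusted p = 0.889). It was the sole member called in CG7818, where 2.32% of all genes were called (3 canonical genes passed an unadjusted p under 0.05). RpL7A was also lower in a direct test of CG7818 against Ime4 (log2 difference -0.61 ± 0.085, adjusted p = 0.000366). In that comparison 0.502% of all genes were called.

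In the double depletion against Ime4 the log2 difference of RpL7A was -0.43 ± 0.084 (adjusted p = 0.039), where 0.156% of all genes were called and RpL7A was the sole member. That call was lost in each fit that left out 1 of the 6 libraries (adjusted p = 0.0751 to 0.199). Between the double depletion and CG7818 it was 0.18 ± 0.084 and did not pass (adjusted p = 0.262). In Fl2d the gene had 4078, 3503 and 3193 CPM, a log2 fold change of 0.26 ± 0.084 (adjusted p = 0.0165). Without Fl2d replicate 1 this did not pass (adjusted p = 0.122). Over the 7 group means of log2 CPM, the gene with the profile most like that of RpL7A was FBgn0039632, an ID with no entry in the annotation (Pearson r = 0.991), with log2 differences of -0.63 in CG7818 and -0.45 in the double depletion. The next were Mon1 (r = 0.978), twf (r = 0.971), CG31548 (r = 0.963) and mtm (r = 0.961), whose group means spanned 0.066 to 0.288 on the log2 scale, against 0.902 for RpL7A.

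**Figure D3:**
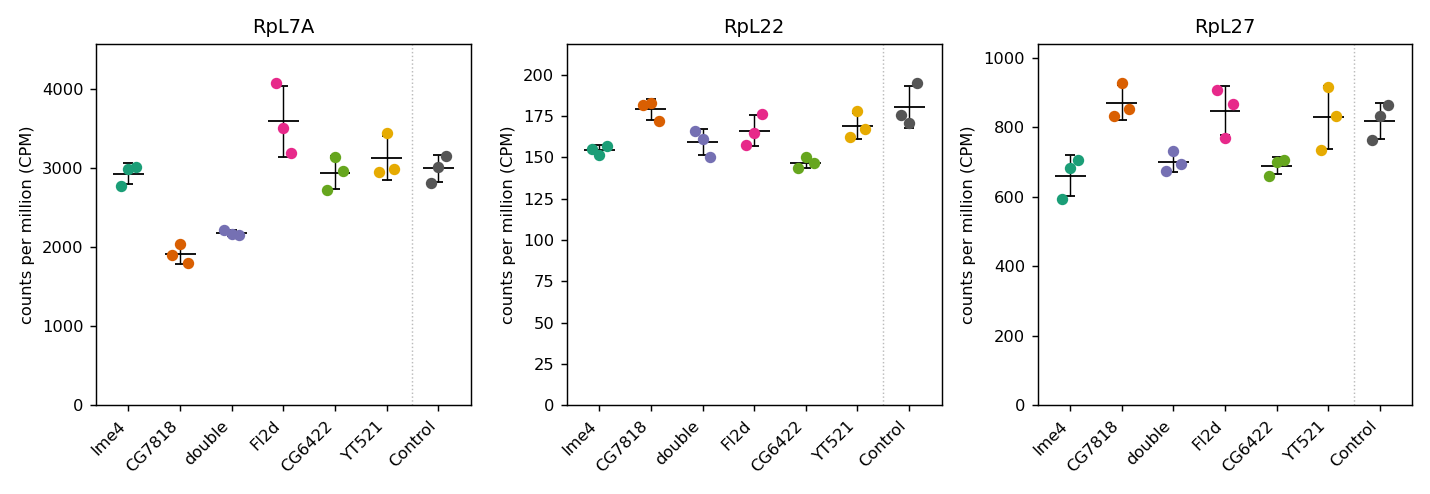
CPM of RpL7A, RpL22 and RpL27 in each of the 21 libraries, with the mean and SD of 3. RpL7A is lowest in the 2 groups depleted of CG7818, RpL22 is lowest in CG6422, and RpL27 is lower in Ime4, the double depletion and CG6422 than in CG7818.

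RpL22 and RpL27, both of the large subunit, were called lower more than once. RpL22 is the least abundant canonical gene per length and the partner of RpL22-like, which was near 0. It had 155.4, 151.7 and 156.8 CPM in Ime4, 166.0, 161.3 and 150.5 CPM in the double depletion and 143.8, 150.4 and 146.5 CPM in CG6422, against 175.9, 171.0 and 195.2 CPM in Control. The libraries of each of these 3 depletions lay below every Control library. RpL22 fell by 0.22 ± 0.054 in Ime4 (adjusted p = 0.0211), by 0.18 ± 0.054 in the double depletion (adjusted p = 0.032) and by 0.30 ± 0.054 in CG6422 (adjusted p = 0.000908) on the log2 scale. The CG6422 call held in every alternative, while the other 2 were each lost in 5 of 15, with Control replicate 3 among the libraries left out (adjusted p = 0.134 for Ime4 and 0.185 for the double depletion). Of its exons, 377 bases overlap lncRNA:CR42491 on the same strand, and reads from the 2 genes cannot be told apart there.

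RpL27 had 594.3, 682.4 and 706.9 CPM in Ime4 and 661.3, 700.7 and 706.8 CPM in CG6422, against 762.7, 831.6 and 864.1 CPM in Control. It fell by 0.31 ± 0.079 in Ime4 (adjusted p = 0.0298) and by 0.25 ± 0.079 in CG6422 (adjusted p = 0.0305), and in neither group did it overlap Control. In CG7818 it had 831.5, 928.6 and 854.3 CPM and was not called. CG7818 exceeded Ime4 by 0.40 ± 0.079 (adjusted p = 0.0168), and the log2 difference of the double depletion against CG7818 was -0.32 ± 0.079 (adjusted p = 0.0378), in a comparison with 2.17% of all genes called. Each of these calls was lost without some single library, with adjusted p up to 0.176. Exons of RpL27 overlap Idh3g on the opposite strand by 158 bases, and the sources used here do not say whether counting used strand.

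In Ime4, 3 members were called (RpS19b, RpL22 and RpL27), or 3.7% of 81, beside 3.72% of all genes. In the double depletion 3 were called (RpS19b, RpL7A and RpL22), likewise 3.7%, beside 11.4% of all genes. The median log2 fold change of the canonical genes was -0.089 in Ime4, -0.013 in CG7818 and -0.055 in the double depletion, where that of all genes was 0.002, 0.003 and -0.004. In Ime4, 1 member was called when replicate 1 or 2 of that depletion was left out, and likewise when Control replicate 2 or Control replicate 3 was. With totals alone as the scaling, RpS19b was the sole member called in Ime4, and RpS19b and RpL7A were called in the double depletion. In Ime4, 70 of 75 canonical values were below 0, by at most 0.31. By library, the median canonical log2 ratio to the Control mean was -0.153, -0.065 and -0.063 in Ime4, against -0.088, -0.006 and 0.09 in Control, and the groups overlapped.

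CG6422 had 9 members called, 11.1% of 81, beside 19.1% of all genes. The 7 that fell were canonical, by 0.17 to 0.30 on the log2 scale, and included RpL22, RpS4, RpL27, RpS24, RpS3A and RpS13. RpS4 had 889.2, 986.2 and 933.7 CPM in CG6422, against 1026, 1140 and 1190 CPM in Control, and fell by 0.26 ± 0.066 (adjusted p = 0.00975). Upper-quartile scaling gave 2 higher and 5 lower members, and totals alone 2 and 2. The 7 genes that fell did not overlap Control in any library, and neither did 21.3% of canonical genes and 37.2% of all genes tested. Of the other calls, RpS4 was lost in 1 alternative (adjusted p = 0.0556 without Control replicate 3), and RpL27, RpS3A, RpS24 and RpS13 in 6 to 8. Without Control replicate 3, 3 members were called beside 13.9% of all genes, and without Control replicate 2, 4 beside 10.4%. Without CG6422 replicate 1 or replicate 3, 5 were called, beside 16.8% and 12.7%. With a trend over gene length removed, 1 member was higher and 20 were lower, beside 13.8% of all genes called.

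The paralogs RpS19b and RpS15Ab rose in CG6422. RpS15Ab, on 2R with 1 exon, encodes a second form of the small subunit protein S15A. It had 90.8, 86.6 and 93.2 CPM in CG6422 and 91.1, 86.1 and 85.7 CPM in YT521, against 75.7, 75.5 and 77.8 CPM in Control. Neither depletion overlapped Control. The log2 fold change was 0.24 ± 0.055 in CG6422 (adjusted p = 0.0049), lost with a trend over gene length removed (adjusted p = 0.0728). In YT521 it was 0.20 ± 0.055 (adjusted p = 0.0329), lost in 7 of 16 alternatives (adjusted p up to 0.204). Its partner RpS15Aa was not called in either.

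In YT521, RpS19b and RpS15Ab were the 2 members called, 2.47% of 81, beside 6.52% of all genes. Of the canonical genes 0 were called (14 passed an unadjusted p under 0.05, and DESeq2 called 5, all higher). Their median log2 fold change was 0.079 with all 3 libraries and 0.02 without YT521 replicate 2. With upper-quartile scaling 4 members were higher and 1 lower, and without scaling beyond totals 0 and 1.

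Fl2d had 31 members called, 38.3% of 81, beside 41.3% of all genes. All 31 were higher, beside 21.4% of all genes called higher, and 0 were lower (1 at an unadjusted p under 0.05, and 0 by DESeq2). They were 26 of the 75 canonical genes (34.7%), 12 of 45 in the large and 14 of 30 in the small subunit. The others were 5 of the 6 tested paralogs, the assembly factor counterparts RpL24-like and RpLP0-like among them. Of the 615 most highly expressed genes, which hold most canonical genes, 33.5% were called higher and 15.1% lower, with a median of 0.076. The median log2 fold change of the canonical genes was 0.18, that of the tested paralogs 0.538 and that of all genes 0.015. Of the 13 canonical genes on X, 9 were called, and of the 62 on autosomes 17, while of all genes tested 261 of 1446 on X and 1483 of 6718 on autosomes were called higher.

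Most canonical calls in Fl2d were lost without 1 library. The median log2 ratio of the canonical genes to the Control mean was 0.351 in Fl2d replicate 1, the library with the lowest mt:lrRNA, 0.138 in replicate 2 and 0.045 in replicate 3, against -0.088 to 0.09 in Control. Without replicate 1 the median log2 fold change was 0.083, and 7 of the 31 calls remained, those of RpS6, RpS5a, RpS5b, RpS10a, RpS19b and RpLP0-like among them. In that fit 33.1% of all genes were called. Leaving out Control replicate 1 gave 10 calls (33.4% of all genes called), and leaving out Control replicate 2 gave 16 higher and 1 lower (36.5%). Leaving out Fl2d replicate 3 gave 46 higher and 2 lower (41%), while fitting Fl2d and Control alone gave 7 (27.6%). With a trend over gene length removed, 18 members were higher and 1 was lower (41.6%). Whether low mt:lrRNA had a part in these values was not tested.

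**Figure D4:**
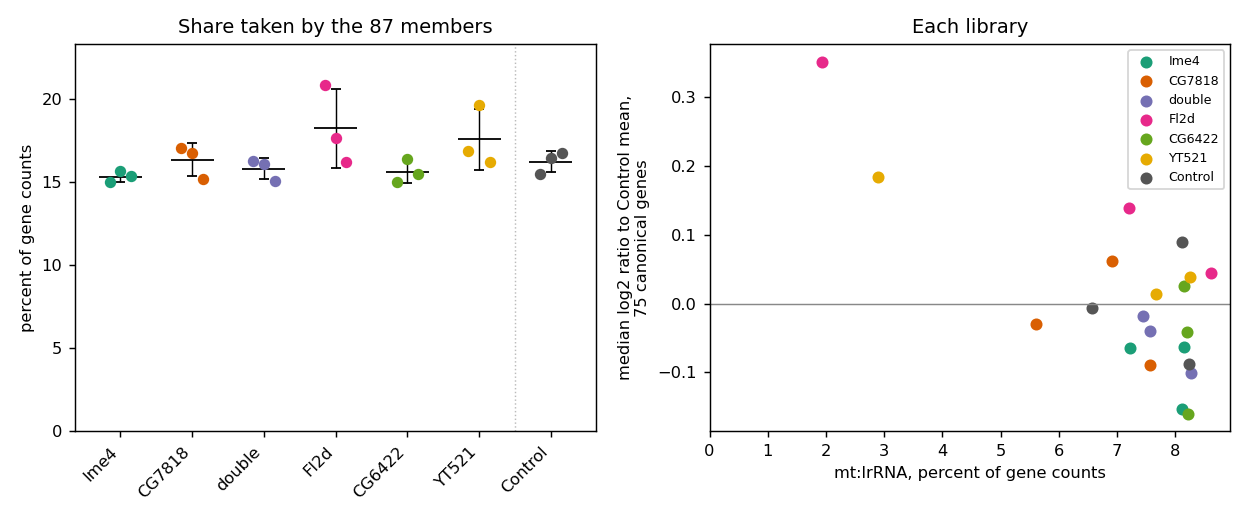
Left, percent of gene counts taken by the 87 members in each library, with the mean and SD of 3 per group. Right, for each library, the median log2 ratio of the 75 canonical genes to the Control mean against the percent of gene counts in mt:lrRNA. Fl2d replicate 1 and YT521 replicate 2 have the least mt:lrRNA, the largest shares (20.8% and 19.6%) and the highest medians (0.351 and 0.183).

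The Fl2d calls of RpS6 and RpS5a, which held without replicate 1, also held in every other alternative tried. RpS6, on X, is the small subunit protein phosphorylated by S6 kinase downstream of TOR. It had 3109, 2594 and 2329 CPM in Fl2d, against 1842, 2007 and 2086 CPM in Control, with no overlap (log2 fold change 0.44 ± 0.090, adjusted p = 0.000618). Its exons overlap a snoRNA gene and a further gene on the same strand by 202 bases in all. RpS5a had 2890, 2391 and 2232 CPM in Fl2d, against 1837, 1916 and 1999 CPM in Control (log2 fold change 0.39 ± 0.077, adjusted p = 0.000422). In both genes replicate 1 was the highest Fl2d library. RpL17, on X with 4 snoRNA genes in its introns, had the largest change among the canonical genes whose Fl2d call was lost without replicate 1. It had 1590, 1165 and 1077 CPM in Fl2d, against 900.9, 1051 and 1121 CPM in Control, so the groups overlapped (log2 fold change 0.32 ± 0.12, adjusted p = 0.0368). Without replicate 1 its value was 0.13 (adjusted p = 0.352).

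RpS5b had the largest change of any member. It lies on 3R (14900432 to 14901563, minus strand, BDGP6.54) and shares no exon with another gene. It had 4.97, 3.60 and 3.67 CPM in Fl2d, against 1.46, 1.15 and 1.29 CPM in Control. No Fl2d library overlapped any library of another group, whose values lay between 0.776 and 1.81 CPM. The log2 fold change in Fl2d was 1.66 ± 0.19, or 3.16-fold (adjusted p = 8.53e-07), and 1.49 without replicate 1 (adjusted p = 7.74e-06). Per kb it reached 0.237 ± 0.016% of RpS5a in Fl2d, against 0.099 ± 0.015% in Control (SD, n = 3), and the 3 ratios of each group did not overlap. It was not called in the other 5 depletions, where log2 fold changes ran between -0.17 and 0.29.

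RpS10a, a paralog with 1 exon on 3R, had 1.58, 1.15 and 1.05 CPM in Fl2d, against 0.443, 0.661 and 0.445 CPM in Control (log2 fold change 1.25 ± 0.28, adjusted p = 0.00132). In CG6422 its value of 0.77 ± 0.30 did not pass (adjusted p = 0.0736). RpLP0-like had 161, 132 and 128 CPM in Fl2d, against 104, 101 and 98.4 CPM in Control (log2 fold change 0.47 ± 0.067, adjusted p = 1.06e-05). RpL24-like had 318, 280 and 278 CPM in Fl2d, against 227, 250 and 266 CPM in Control (log2 fold change 0.24 ± 0.071, adjusted p = 0.0106). RpLP0-like reached 6.66 ± 0.11% of RpLP0 per kb in Fl2d, against 5.46 ± 0.46% in Control, while RpL24-like stood at 30.7 ± 1.2% of RpL24, against 31.2 ± 0.51% (SD, n = 3). The RpLP0-like ratio was also above every Control library in Ime4 (6.59 ± 0.57%) and in the double depletion (6.28 ± 0.22%). Neither gene of the pair was called there. RpLP0-like had 107 and 101.6 CPM, against 101 CPM in Control, and RpLP0 had 2278 and 2268 CPM, against 2601 CPM. In CG7818, CG6422 and YT521 the ratio was 6.04 ± 0.34%, 5.92 ± 0.64% and 5.7 ± 0.37%, and overlapped Control. The RpL24-like call was lost without Fl2d replicate 1 (adjusted p = 0.0715). RpS15Ab was the tested paralog not called in Fl2d (log2 fold change 0.06 ± 0.056, adjusted p = 0.407).

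**Figure D5:**
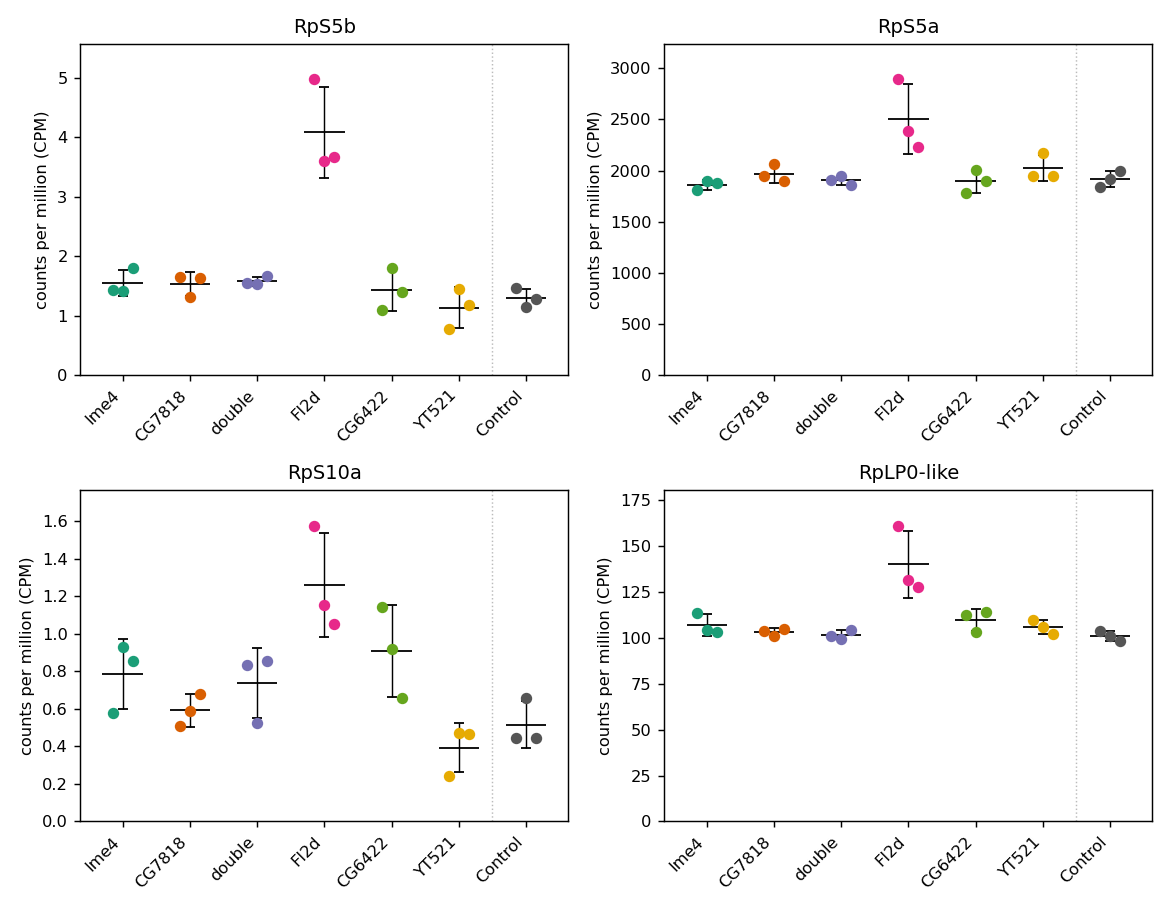
CPM of RpS5b, its canonical partner RpS5a, RpS10a and RpLP0-like in each of the 21 libraries, with the mean and SD of 3. For RpS5b the 3 Fl2d libraries (3.60 to 4.97 CPM) lie above the other 18, and for all 4 genes replicate 1 is the highest Fl2d library.

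Fl2d was also set against the double depletion, a comparison added after the data were seen. Of 81 members, 50 were higher in Fl2d (46 canonical genes and 4 paralogs) and 0 were lower (0 also at an unadjusted p under 0.05 and by DESeq2). Over all genes 36.9% were called and 18.6% called higher. RpL7A differed most among the canonical genes (3591 CPM in Fl2d and 2176 CPM in the double depletion; log2 difference 0.72 ± 0.085, adjusted p = 1.41e-06). The next canonical genes by size were RpL8, RpL17, RpL4, RpL26 and RpL11 of the large subunit, with log2 differences of 0.44 to 0.49. RpS5b averaged 4.08 CPM in Fl2d and 1.58 CPM in the double depletion (log2 difference 1.37 ± 0.19, adjusted p = 1.04e-05). RpS19b was not called (141.3 CPM in Fl2d and 133.4 CPM in the double depletion, adjusted p = 0.414). Without Fl2d replicate 1, 15 members were called, without replicate 1 of the double depletion 33, and without its replicate 3, 29. The shares of all genes called were then 26.9%, 28.1% and 29.4%.

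As a share of all gene counts the members took 15.3 ± 0.33% in Ime4, 16.3 ± 1.0% in CG7818, 15.8 ± 0.63% in the double depletion, 18.2 ± 2.4% in Fl2d, 15.6 ± 0.69% in CG6422 and 17.6 ± 1.8% in YT521, against 16.2 ± 0.64% in Control (SD, n = 3). Fl2d replicate 1 and YT521 replicate 2 set the upper ends. Over the other 19 libraries the share ran between 14.98% and 17.7%. With mitochondrial genes left out of the total it was 20.3 ± 1.2% in Fl2d and 19.8 ± 0.82% in YT521, against 18.8 ± 0.66% in Control (SD, n = 3).

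Other genes of the ribosome were read from 3 lists. Of 30 matched genes of ribosome biogenesis and its regulation, 21 were higher and 2 lower in Fl2d, with a median log2 fold change of 0.288, beside 21.4% of all genes called higher, 19.9% called lower and a median of 0.015. Without Fl2d replicate 1 and YT521 replicate 2, 19 were higher and 1 lower, a fit added after the data were seen. The most certain were eIF6, which keeps the large subunit from joining too early (121.8 ± 15 CPM in Fl2d and 75.8 ± 2.5 CPM in Control, log2 fold change 0.68, adjusted p = 1.26e-07), and Nop56, a core protein of box C/D snoRNPs (658.5 ± 41 CPM in Fl2d and 482.9 ± 15 CPM in Control, log2 fold change 0.45, adjusted p = 1.3e-07). CG1542 and Nop60B, the pseudouridine synthase of box H/ACA snoRNPs, rose by 0.57 (adjusted p = 3.06e-07) and 0.39 (adjusted p = 8.06e-06). Mnt and kra were lower. In the other groups 0 higher and 1 lower were called in Ime4, 0 and 2 in the double depletion, and 1 and 3 in CG6422, where 3.72%, 11.4% and 19.1% of all genes were called. In CG7818 and in YT521 the counts were 0 (3 and 6 genes passed an unadjusted p under 0.05, and DESeq2 called 0). Without the pair of libraries low in mt:lrRNA, 1 was higher and 3 lower in Ime4, and 1 and 2 in the double depletion. CG6422 then had 2 and 3, YT521 0 and 1, and CG7818 0 and 0. Nop60B fell in Ime4 by 0.28 (adjusted p = 0.00492) and in the double depletion by 0.28 (adjusted p = 0.00138).

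Among 11 matched translation elongation factors and ribosome components outside the symbol rule, 3 were higher and 2 lower in Fl2d, 1 was lower in CG6422 and 1 higher in the double depletion. In Ime4, CG7818 and YT521 the count was 0 (2, 3 and 0 at an unadjusted p under 0.05, and 1, 0 and 0 by DESeq2). The shares of all genes called are those given above for each depletion. Without Fl2d replicate 1 and YT521 replicate 2, 2 were higher and 4 lower in Fl2d, so the balance turned. In that fit 2 were lower in CG6422 and 1 was lower in Ime4. The elongation factor eEF2 rose by 0.24 in Fl2d (adjusted p = 0.0125) and fell by 0.25 in CG6422 (adjusted p = 0.0205). In Fl2d, Thor, the fly 4E-BP that restrains cap-dependent translation, had 29.7 ± 4.7 CPM, against 61.7 ± 9.7 CPM in Control, and fell by 1.05 (adjusted p = 1.03e-06). Of 6 genes known to respond to mutation of a ribosomal protein gene in flies, 1 was higher in each of Ime4, CG7818, Fl2d and YT521, 2 in CG6422 and 3 in the double depletion, and 1 was lower in Fl2d and in CG6422. Without the pair of libraries low in mt:lrRNA, 0 were lower in Fl2d, 2 in CG6422 and 1 each in Ime4 and YT521. The transcription factor crc (the fly ATF4) was higher in all 6 depletions, by log2 fold changes of 0.25 in CG7818 to 0.65 in the double depletion. Irbp18, a transcription factor that pairs with Xrp1, rose in the double depletion by 0.38 (adjusted p = 0.0198) and in CG6422 by 0.37 (adjusted p = 0.0154). The phosphatase gene puc, a target and inhibitor of JNK signalling, fell by 0.25 in Fl2d (95.3 ± 15 CPM, against 113.6 ± 3.5 CPM in Control, adjusted p = 0.0123). That call was lost without the pair of libraries low in mt:lrRNA. In CG6422 puc fell by 0.34 (90.0 ± 0.65 CPM, adjusted p = 0.00495). Xrp1 itself was not called in any depletion, with log2 fold changes of -0.19 (CG6422, adjusted p = 0.0527) to 0.09 (double depletion).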

How the data were processed

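Each deposited table holds raw counts of reads per gene for 1 of 21 libraries, 3 in each of 7 groups taken from the sample titles. The submitters' processing notes name the build BDGP6, HTSeq 0.6.1, STAR 2.4.0h, DESeq2 1.6.3 and CASAVA 1.8.4 as what the authors used, and poly(A) selection and TruSeq libraries are per the labels' protocols. The sources used here do not say whether counting used strand. Summary lines that name no gene (reads aligned to several places 11.04% to 18.69%, outside genes 1.46% to 1.91%, ambiguous 0.723% to 0.893% of reads) stayed out of totals and tests.

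Symbols, exon lengths and coordinates came from the Ensembl annotation of BDGP6.54. Genes were filtered with filterByExpr (minimum count 10), which left 8360. Libraries were scaled by TMM, and edgeR 4.0.16 (R 4.3.3) fitted 1 quasi-likelihood model over all groups, with Benjamini-Hochberg adjustment over all genes tested and a threshold of 0.05. CPM is counts-per-million of the TMM-scaled total, so 1 CPM is 19.9 to 28.8 counts, and CPM per kb divides by merged exon length. Alternatives were DESeq2 1.42.0 and other scalings, filters and sample sets. Reported values come from the fit without a block by replicate number, and the block was an alternative. Correlations between same-numbered libraries passed 0.1 in every pair only for the double depletion against CG7818 (0.109 to 0.192). The script was tested on simulated data. Fold changes carry their SE and group means their SD.

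The genes and lists were chosen with earlier results of these data known. Named genes are the members called in a comparison (where there are over 8 in a direction, the 8 with the largest change are given first), the paralogs with their partners, RpL7A, the 4 highest and 4 lowest canonical genes in Control, 5 genes with a profile like that of RpL7A and up to 4 members of each other list. RpS4 in the order of levels and Xrp1 were added after their values were seen. The values of some genes are not reported here. Sequences and promoter motifs were not analysed here.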

Additional observations from a re-analysis of the deposited data

Results flagged for a closer look

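RpS19b and RpL7A changed in opposite directions in depletions whose difference was tested directly. RpS19b was lower than Control in YT521 and higher in CG6422, and differed between YT521 and CG6422 by a log2 value of -1.15 (adjusted p = 1.7e-09), with all 3 YT521 libraries below all 3 CG6422 libraries. RpL7A was higher than Control in Fl2d and lower in the double depletion, and differed between Fl2d and the double depletion by a log2 value of 0.723 (adjusted p = 1.41e-06), with all 3 Fl2d libraries above all 3 libraries of the double depletion. The direct difference held in every alternative, but the Fl2d call against Control was lost in 5 of 16 (adjusted p = 0.122 without Fl2d replicate 1). Groups of 3 libraries are too small for the test of a sample that stands apart.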

How the results depend on the processing

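Counts of members called were recomputed 169 times and lay within 1.5 times of the reported count in 88. Of the other 81, 50 were fewer and 31 more, and the cause was not tested. Over the same fits the share of all genes called was 1.6% to 7.63% in Ime4, 1.1% to 3.03% in CG7818 and 5.48% to 20.3% in the double depletion. It was 23.9% to 42.8% in Fl2d, 10% to 21.4% in CG6422 and 2.88% to 8.83% in YT521. For YT521 against CG6422 it was 7.39% to 14.4%, and for Fl2d against the double depletion 21.5% to 39.4%. No single gene value reversed in 972 recomputations, and 23 of 62 calls held throughout. With DESeq2 the members called were 6 in Ime4, 3 in CG7818, 6 in the double depletion, 7 in YT521, 6 for CG7818 against Ime4 and 21 for YT521 against CG6422. Without the filter on low counts they were 5 in Ime4, 3 in CG7818, 5 in the double depletion, 7 in YT521, 5 for CG7818 against Ime4, 2 for the double depletion against CG7818 and 21 for YT521 against CG6422. With totals alone they were 1 in Ime4, 12 in Fl2d, 4 in CG6422, 1 in YT521, 0 for the double depletion against Ime4, 0 for it against CG7818 and 32 for Fl2d against the double depletion. Upper-quartile scaling gave 5 in YT521. With only the groups compared in the fit they were 6 in Ime4, 2 in CG7818, 7 in the double depletion, 7 in Fl2d, 5 for CG7818 against Ime4, 2 for the double depletion against Ime4, 4 for it against CG7818, 4 for YT521 against CG6422 and 23 for Fl2d against the double depletion. With a trend over gene length removed they were 6 in Ime4, 2 in CG7818, 6 in the double depletion, 19 in Fl2d, 21 in CG6422, 1 in YT521, 6 for CG7818 against Ime4 and 24 for YT521 against CG6422, and the canonical median was -0.109 in the double depletion, 0.111 in Fl2d, -0.165 in CG6422 and 0.017 in YT521. Without both libraries low in mt:lrRNA they were 7 in Fl2d and 18 for Fl2d against the double depletion.

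Leaving out 1 library at a time gave 1 to 4 members in Ime4, 1 in CG7818, 2 to 3 in the double depletion, 7 to 48 in Fl2d, 3 to 10 in CG6422 and 1 to 4 in YT521. It gave 1 to 2 for CG7818 against Ime4, 0 for the double depletion against Ime4 and against CG7818, 1 to 15 for YT521 against CG6422 and 15 to 57 for Fl2d against the double depletion. The canonical median then lay between -0.134 and -0.043 in Ime4, -0.051 and 0.034 in CG7818, -0.09 and -0.012 in the double depletion, 0.083 and 0.235 in Fl2d, -0.105 and -0.014 in CG6422 and 0.02 and 0.139 in YT521. With mitochondrial genes left out of the total, the members' share was 17.98% in Ime4, 18.57% in CG7818, 18.41% in the double depletion, 18.45% in CG6422 and 19.84% in YT521, against 18.84% in Control.

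The groups share replicate numbers, but same-numbered libraries deviated together by correlations of -0.234 to 0.172 across the comparisons with Control and of -0.037 to 0.233 across the direct comparisons. All 3 pairs passed 0.1 only for the double depletion against CG7818, where the block left 1 member called, RpL27 (adjusted p = 0.0208). The values reported above, those of this comparison included, come from the fit without a block. With a replicate block 4 members were called in Ime4, 3 in CG7818, 5 in the double depletion, 38 in Fl2d, 10 in CG6422 and 6 in YT521, and each call reported was among them. No change is given for the 6 paralogs at or under 3 counts, and for RpL7-like the exon overlap with CG34164 also limits the count. Depth limits RpS10a and RpS5b to differences well above their SE of 0.19 to 0.34.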

Other observations

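Of the canonical genes, 25 hold snoRNA genes in their introns and 50 do not. Their median log2 fold changes were -0.114 and -0.069 in Ime4, -0.032 and -0.01 in CG7818, -0.108 and -0.03 in the double depletion, 0.161 and 0.185 in Fl2d, -0.108 and -0.049 in CG6422, and 0.061 and 0.092 in YT521, with the hosts of snoRNA genes given first in each pair. The hosts had the lower median in each of the 6 comparisons, which share their Control libraries, and the difference was not tested.

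RpL34a and RpL34b are duplicate genes for a protein of the large subunit. RpL34a stood at 30.5 ± 0.49% of RpL34b per kb in YT521, against 32.6 ± 0.47% in Control (SD, n = 3), and the 3 values of each group did not overlap. The ratio was higher, also with no overlap, in CG7818 at 34.9 ± 1.1% and in the double depletion at 34.7 ± 0.19% (SD, n = 3). In Ime4 and CG6422 it was 32.7 ± 0.11% and 32.9 ± 1.5% (SD, n = 3), and both overlapped Control. In Fl2d the values were 28.1%, 29.8% and 33.9%, against 33%, 32.1% and 32.7% in Control, and the groups overlapped.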
